A study of Mus musculus with 2 samples.

Results

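The genes described here encode muscle proteins that bind titin, actin or the Z-disc and are known to respond to stretch or load. They are 10 of the 55536 genes in the deposited tables, listed by gene symbol. The rule uses no measured value, but the list was drawn up with earlier results of these data known. They fall into 3 muscle ankyrin repeat genes (Ankrd23, Ankrd2 and Ankrd1), 3 LIM-only genes (Csrp3, Fhl1 and Fhl3), the LIM and nebulin-repeat gene Nrap, 2 Xin genes (Xirp2 and Xirp1) and Smpx. RNA came from the gastrocnemius, a calf muscle, of female B6CASTF1/J mice aged 2 months, which are F1 animals of a B6 by CAST cross. Total RNA was sequenced from 300 ng per library with ERCC spike-in RNAs added, and the spike-in label refers to stranded libraries with reduced ribosomal RNA. There were 2 libraries, labelled biological replicates 1 and 2 of 1 group and called animal 1 and animal 2 here. The labels name no treatment, load or injury, so the values describe levels and no response. The labels give both libraries 1 donor record, so the spread between them could be technical or lie within 1 mouse.

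Titin spans from the Z-disc to the middle of the sarcomere and carries passive tension. Muscle ankyrin repeat proteins bind its N2A region in the I-band and can also enter the nucleus, where they act on transcription. LIM domains are zinc-binding protein interaction modules, and in muscle LIM-only proteins sit at the Z-disc, the I-band and along titin. Xin proteins carry repeats that bind actin filaments and are found at the junctions where force leaves the muscle cell, in heart at the intercalated disc and in skeletal muscle at the myotendinous junction. In skeletal muscle several of these genes are known to rise with stretch, eccentric exercise, denervation or injury.

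The libraries held 45014831 expected counts on genes in animal 1 against 47771308 in animal 2. Levels are given as TPM, the share of all transcripts scaled to a fixed total, which corrects for transcript length and so can be compared between genes. All 13 fast-fibre markers stood at 997 TPM or more, on the mean of both animals, in this mostly fast muscle. Markers of slow fibres and of other tissues differed between the animals. The summed TPM of 10 slow-fibre markers was 1161 in animal 1 against 4286 in animal 2, and all 10 were higher in animal 2. Summed TPM of 6 adipocyte markers was 579 in animal 1 against 35.1 in animal 2, and that of 6 Schwann cell markers was 245 in animal 1 against 33.2 in animal 2. Tenocyte markers summed to 145 TPM in animal 1 against 260 TPM in animal 2, with all 10 higher in animal 2, and smooth muscle and pericyte markers to 213 TPM in animal 1 against 117 TPM in animal 2. In bulk tissue, fewer cells of a type and less RNA per cell cannot be told apart.

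All 10 genes were detected at 1 TPM or more in both animals, and they spanned from the most abundant muscle messages to the middle of the expressed range. Together they made up 3453 TPM in animal 1 against 3389 TPM in animal 2, which was 0.906% in animal 1 against 0.908% in animal 2 of all TPM from protein-coding genes of the nucleus. Ranks below are among the 16426 such genes with a TPM above 0, ordered by mean TPM. On mm10, Ankrd23 lies at chr1:36530188-36536883, Xirp2 at chr2:67446002-67526614, Fhl3 at chr4:124700701-124708611, Csrp3 at chr7:48830398-48848033 and Xirp1 at chr9:120013755-120023598. Ankrd1 (chr19:36111961-36120099), Ankrd2 (chr19:42036000-42045110) and Nrap (chr19:56320035-56390037) are on chr19, and Fhl1 (chrX:56731787-56793346) and Smpx (chrX:157698910-157752591) on chrX. All 10 passed the minimum mean count of 100 used for ratios, and counts per gene and library ran from 267 for Ankrd1 in animal 1 to 192246 for Xirp2 in animal 2.

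Among the ankyrin repeat genes 1 dominated. Ankrd23, also called DARP and known as a titin N2A and myopalladin partner, had 1107 TPM in animal 1 against 1511 TPM in animal 2. It averaged 1309 ± 286 TPM (SD, n = 2) and ranked 25, on a level with the Z-disc titin cap gene Tcap, which had 1176 TPM in animal 1 against 1094 TPM in animal 2. Ankrd2, also called ARPP and known for its induction by passive stretch and its high level in slow muscle, had 94.1 TPM in animal 1 against 84.4 TPM in animal 2, a mean of 89.2 ± 6.88 TPM (SD, n = 2). Ankrd1, or CARP, a transcriptional cofactor and YAP target that is abundant in heart and induced in injured or denervated muscle, had only 3.82 TPM in animal 1 against 3.61 TPM in animal 2. With 267 expected counts in animal 1 against 273 in animal 2 it was measured well above 0, and 45.2% of expressed protein-coding genes ranked above it. Within the family Ankrd23 held 91.9% of TPM in animal 1 against 94.5% in animal 2, Ankrd2 7.81% in animal 1 against 5.28% in animal 2, and Ankrd1 0.317% in animal 1 against 0.226% in animal 2. The order of the 3 genes was the same in both animals.

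Part of the Ankrd23 level rests on how reads were divided between overlapping genes. Gm42417, annotated as protein-coding on the same strand of chr1, overlaps nearly all of Ankrd23 and had 493 TPM in animal 1 against 673 TPM in animal 2. The posterior SD of the expected count was 71.2 in animal 1 against 79.9 in animal 2 for Ankrd23, and 71.3 in animal 1 against 80.0 in animal 2 for Gm42417, while it was 0 for most and at most 0.04 for the other genes described here. The TPM of both genes summed to 1600.3 TPM in animal 1 against 2184 TPM in animal 2. By expected counts Gm42417 was small beside Ankrd23, with 3460 in animal 1 against 4984 in animal 2. The count of Ankrd23 was large against this uncertainty, with 75738 in animal 1 against 109539 in animal 2.

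Of the LIM-only genes, Fhl1 was the highest. Fhl1, the four-and-a-half LIM protein of skeletal muscle whose human mutations cause X-linked myopathies, had 1029 TPM in animal 1 against 740.2 TPM in animal 2, a mean of 885 ± 204 TPM (SD, n = 2) and rank 39. Fhl3, which binds actin and has been described at focal adhesions and in the nucleus, had 82.5 TPM in animal 1 against 54.2 TPM in animal 2. Fhl1 held 92.3% of the TPM of its family in animal 1 against 92.5% in animal 2, and Fhl3 held 7.39% in animal 1 against 6.78% in animal 2. The related Fhl2, which is abundant in heart, had 0.91 TPM in animal 1 against 2.98 TPM in animal 2, on 50 expected counts in animal 1 against 174 expected counts in animal 2. Fhl5 had 2.62 TPM in animal 1 against 2.48 TPM in animal 2, and Fhl4 0.05 TPM in animal 1 against 0.06 TPM in animal 2.

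Csrp3, the muscle LIM protein MLP, binds telethonin and alpha-actinin at the Z-disc, and mice without it develop dilated cardiomyopathy. Its level was 235 TPM in animal 1 against 85.5 TPM in animal 2, the least alike pair of values among the 10 genes, with a mean of 160.0 ± 105 TPM (SD, n = 2). Csrp3 made up 90.4% of the summed TPM of Csrp1, Csrp2 and Csrp3 in animal 1 against 88.4% in animal 2. Csrp1, which is known from smooth muscle, had 19.0 TPM in animal 1 against 8.97 TPM in animal 2, and Csrp2 had 5.95 TPM in animal 1 against 2.21 TPM in animal 2. All 3 Csrp genes were higher in animal 1. The related Crip1 and Crip2 were left out of the share of Csrp3 given above. Crip1 had 62.8 TPM in animal 1 against 40.6 TPM in animal 2, above Csrp1. Crip2 had 18.9 TPM in animal 1 against 14.7 TPM in animal 2. Csrp2, with 134 expected counts in animal 1 against 60 in animal 2, lay below the minimum mean count of 100 used for ratios.

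Nrap joins a LIM domain to nebulin-type actin-binding repeats and is known from the ends of myofibrils, where it takes part in their assembly and anchoring. It had 335 TPM in animal 1 against 328 TPM in animal 2, a mean of 331 ± 5.50 TPM (SD, n = 2). Nebulin itself, Neb, the ruler protein of the thin filament, had 1966 TPM in animal 1 against 1993 TPM in animal 2. In the nebulin family Nrap held 14.5% of TPM in animal 1 against 14.1% in animal 2, and Neb held 85.1% in animal 1 against 85.6% in animal 2.

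The Xin gene with the higher level was Xirp2, also called myomaxin. It had 390.0 TPM in animal 1 against 404 TPM in animal 2, a mean of 397 ± 10.01 TPM (SD, n = 2). Its leading transcript is 11979 bases long, and it collected the most reads of the 10 genes, 174389 expected counts in animal 1 against 192246 in animal 2. Xirp1, or Xin, which is known to appear in satellite cells and at sites of muscle damage, had 44.5 TPM in animal 1 against 41.5 TPM in animal 2. Xirp2 held 89.8% of the summed Xin TPM in animal 1 against 90.7% in animal 2. Smpx, a small X-linked muscle protein whose human mutations cause hearing loss, had 132 TPM in animal 1 against 137 TPM in animal 2.

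**Figure D1:**
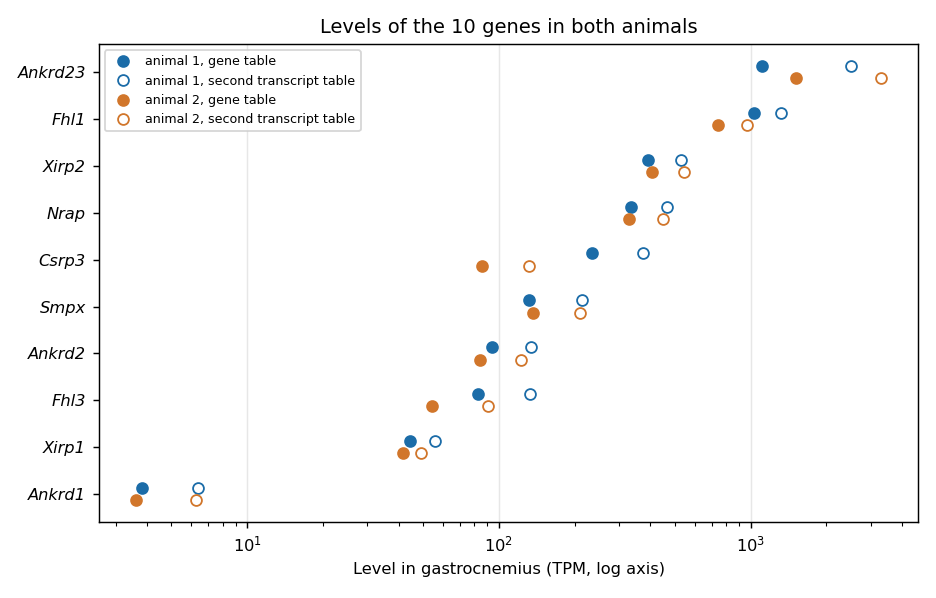
TPM of each of the 10 genes in both animals on a log axis, with genes in order of mean TPM and each animal as a point. Ankrd23 stood highest at 1107 TPM in animal 1 against 1511 TPM in animal 2, Ankrd1 lowest at 3.82 TPM in animal 1 against 3.61 TPM in animal 2, and the points of Csrp3 lay furthest apart.

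The full order by mean TPM was Ankrd23, Fhl1, Xirp2, Nrap, Csrp3, Smpx, Ankrd2, Fhl3, Xirp1 and Ankrd1. Neighbours were set apart by the log2 ratio of their TPM, each with 0.1 added, and called further apart than their spread where the mean over the animals exceeded 2 SD with the same sign in both. This held for 4 of the 9 neighbouring pairs. Fhl1 stood above Xirp2 by 1.14 ± 0.37, Xirp2 above Nrap by 0.26 ± 0.06, Smpx above Ankrd2 by 0.59 ± 0.15 and Xirp1 above Ankrd1 by 3.50 ± 0.02 on the log2 scale (SD, n = 2). The step to Ankrd1 was thus the widest in the order. Ankrd23 and Fhl1, with a difference of 0.57 ± 0.65, were not further apart than their spread. Csrp3 and Smpx changed places, since Csrp3 over Smpx was 0.83 in animal 1 against -0.68 in animal 2 on that scale. Nrap against Csrp3, Ankrd2 against Fhl3 and Fhl3 against Xirp1 also lay within their spread. A second deposited quantification, with TPM summed per gene, gave the same order of the 10 genes, and in it 6 of the 9 pairs were further apart than their spread. Ankrd23 had 2502 TPM in animal 1 against 3304 TPM in animal 2 there and stood beyond its spread from Fhl1, which had 1327 TPM in animal 1 against 967 TPM in animal 2.

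The animals were compared by the log2 ratio of expected counts, animal 1 over animal 2, scaled with edgeR's TMM factors. With 1 library each from 1 group this is a difference between libraries and no test was made, and intervals are exact binomial at 95% and cover counting error only. Csrp3 alone was more than 2-fold apart, with 6892 expected counts in animal 1 against 2707 in animal 2 and a log2 ratio of 1.32 (interval 1.26 to 1.39), or 2.50-fold. Of the 10872 genes at a mean count of at least 100, 2.97% were beyond 2-fold, 2.18% as higher in animal 1 and 0.791% as higher in animal 2. At a mean count of at least 1000, 1.80% of 4112 genes were beyond 2-fold, 1.12% as higher in animal 1 and 0.681% as higher in animal 2. A larger absolute ratio than that of Csrp3 was found in 1.73% of the 10872 genes.

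The other ratios were smaller. Ankrd23 had -0.56 (interval -0.57 to -0.54), a ratio exceeded in size by 8.83% of genes, and Fhl3 had 0.46 (0.39 to 0.52), exceeded by 12.2%. Fhl1 had 0.33 (0.32 to 0.35), exceeded by 19.4%. Smpx had -0.18 and Xirp2 -0.17, and these were exceeded in size by 40.4% and 44.5% of genes. Nrap at -0.07, Ankrd1 at -0.06, Xirp1 at 0.05 and Ankrd2 at 0.04 were nearly alike in both animals, and their signs depended on the scaling, since Nrap and Ankrd1 turned positive with library size alone and Xirp1 and Ankrd2 negative with spike-in scaling. With TMM scaling the 10 genes divided into 5 higher in each animal, with a median of -0.01, against -0.02 over all genes at a mean count of at least 100. By TPM, Nrap and Ankrd1 were slightly higher in animal 1 instead. All 3 LIM-only genes were higher in animal 1 under each scaling tried, and Ankrd23 lay furthest on the side of animal 2.

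**Figure D2:**
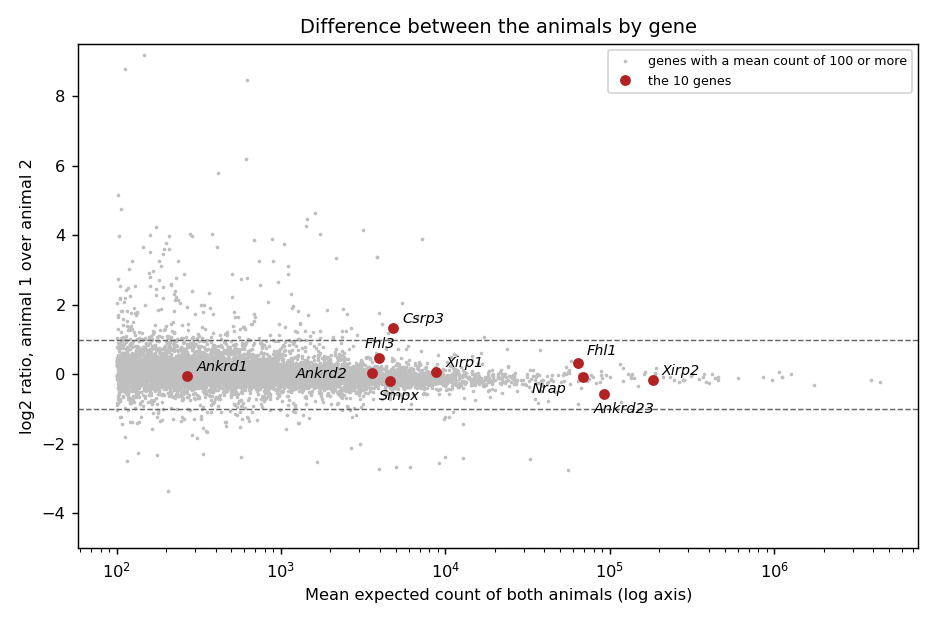
Log2 ratio of animal 1 over animal 2 against the mean expected count on a log axis, for genes at a mean count of at least 100 (grey) and the 10 genes (red), with dashed lines at 2-fold. Csrp3 at 1.32 is the only red point outside the lines, and Ankrd23 at -0.56 is the lowest red point.

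Several marker lists differed between the animals, as Csrp3 did. Csrp3 and Ankrd2 are known to be more abundant in slow than in fast muscle. The slow-fibre markers ran the other way from Csrp3. All 10 were higher in animal 2, 9 of them by more than 2-fold, at a median log2 ratio of -2.42, and Myh7, the slow myosin heavy chain, had 92.6 TPM in animal 1 against 596 TPM in animal 2. Ankrd2 stood at 94.1 TPM in animal 1 against 84.4 TPM in animal 2. The markers on the side of animal 1, as Csrp3 was, included those of smooth muscle and pericytes, 6 of 7 higher with a median of 1.12, of adipocytes, 6 of 6 with a median of 3.88, and of Schwann cells, 5 of 5 with a count of 100 or more and a median of 3.13. Acta2, the smooth muscle actin, had 58.0 TPM in animal 1 against 22.1 TPM in animal 2. Fibroblast markers were higher in animal 1 for 6 of 8, endothelial markers for 5 of 6 and macrophage markers for 5 of 5, with medians of 0.46, 0.33 and 0.58. No marker of these lists was at 0 in either animal, and their part in the Csrp3 difference was not tested.

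Nrap and the Xin genes are known from the myotendinous junction, and the markers of that site and of tendon were higher in animal 2. The 4 junction markers summed to 9.33 TPM in animal 1 against 14.8 TPM in animal 2, their median log2 ratio being -0.70, and Col22a1, the collagen of the junction, had 3.36 TPM in animal 1 against 5.40 TPM in animal 2. The 10 tenocyte markers had a median of -0.87. Nrap at -0.07, Xirp2 at -0.17 and Xirp1 at 0.05 were closer to 0 than these medians. The 5 satellite cell markers, of interest for Xirp1, summed to 3.26 TPM in animal 1 against 3.63 TPM in animal 2. Heart markers were low, with Myl7, the atrial myosin light chain, at 0 in both animals and Tnnt2, the cardiac troponin T, at 0.72 TPM in animal 1 against 1.20 TPM in animal 2. The exception was Myh6, at 18.01 TPM in animal 1 against 125 TPM in animal 2, which can share reads with its neighbour and near copy Myh7. Of 6 genes that mark denervated or regenerating fibres at a mean count of at least 100, 2 were higher in animal 1 and 4 in animal 2, with a median of -0.02. The most abundant, Myh8, the perinatal myosin, had 65.2 TPM in animal 1 against 61.5 TPM in animal 2. Its log2 ratio of scaled counts was -0.03, so it counts among the 4. Myod1 had 9.52 TPM in animal 1 against 6.22 TPM in animal 2, while Myog had 7.59 TPM in animal 1 against 12.4 TPM in animal 2, Ncam1 5.61 TPM in animal 1 against 4.16 TPM in animal 2, Myh3 5.41 TPM in animal 1 against 5.50 TPM in animal 2, and Chrng 0.07 TPM in animal 1 against 0 in animal 2.

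Partner genes were read from 3 lists, and 3 of their genes at a mean count of at least 100 were beyond 2-fold. These were 1 of 25, 1 of 7 and 1 of 19 such genes, against 2.97% of all genes in either direction. Each was higher in animal 2, the direction of 0.791% of all genes. Of 25 titin, Z-disc and costamere partners, 11 were higher in animal 1 against 14 in animal 2, with a median of -0.04. These sides follow the scaled count ratio, which was -0.16 for Ttn and -0.11 for Mypn although their TPM was higher in animal 1. The most abundant were Ttn, titin itself, with 2719 TPM in animal 1 against 2489 TPM in animal 2, and Actn3, the fast alpha-actinin, with 2217 TPM in animal 1 against 1818 TPM in animal 2. Flnc, filamin C, had 217 TPM in animal 1 against 154 TPM in animal 2. Mypn, myopalladin, which binds Ankrd1 and Ankrd23, had 89.4 TPM in animal 1 against 89.1 TPM in animal 2, and Capn3, the N2A-bound protease, had 48.6 TPM in animal 1 against 53.5 TPM in animal 2. Igfn1 was the exception, with 4.94 TPM in animal 1 against 18.8 TPM in animal 2 and a log2 ratio of -2.12.

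The list of load, SRF and YAP response genes was close to even between the animals. Of 19 of its 21 genes at a mean count of at least 100, 9 were higher in animal 1 against 10 in animal 2, with a median of -0.08. Acta1 and Ccn1 are among those 10, with log2 ratios of -0.09 and -0.10, although their TPM was slightly higher in animal 1. Acta1, skeletal alpha-actin, led with 16629 TPM in animal 1 against 16341 TPM in animal 2. Tead1, the transcription factor that YAP binds, had 76.3 TPM in animal 1 against 93.2 TPM in animal 2, and Mustn1 40.2 TPM in animal 1 against 23.5 TPM in animal 2. The YAP targets Ccn2, with 22.0 TPM in animal 1 against 23.6 TPM in animal 2, and Ccn1, with 18.85 TPM in animal 1 against 18.7 TPM in animal 2, stood above Ankrd1 in level. Actc1, cardiac alpha-actin, had 9.71 TPM in animal 1 against 51.4 TPM in animal 2, a log2 ratio of -2.52. Among 7 paralogues at a mean count of at least 100 the median was 0.21, and Fhl2, with a log2 ratio of -1.81, was beyond 2-fold. Mypn, Flnc, Capn3, Ccn1 and Ccn2 were named here after their values were seen.

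**Figure D3:**
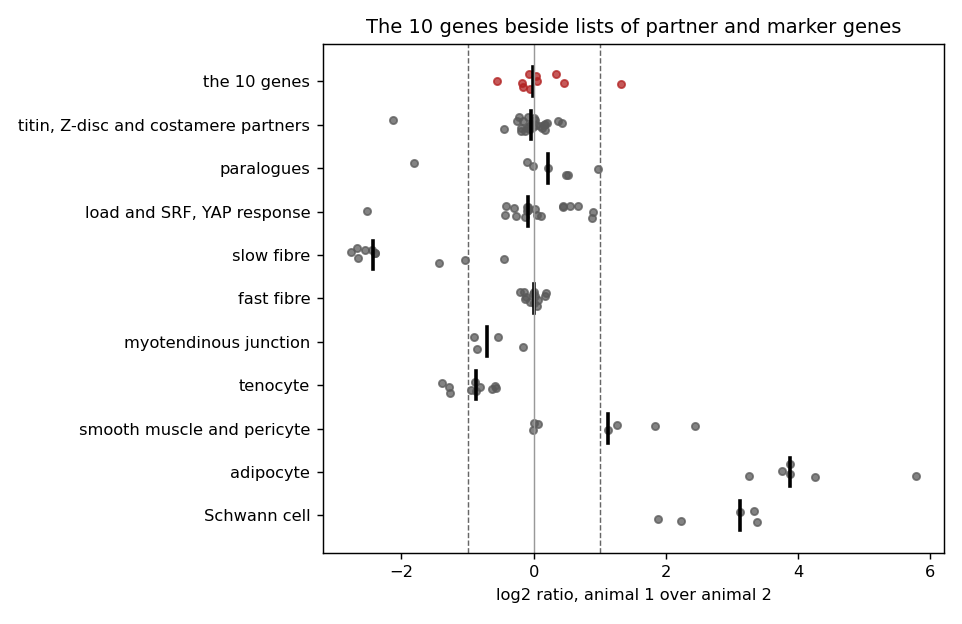
Log2 ratio of animal 1 over animal 2 for each gene of the member, partner, paralogue, load-response and marker lists, each point a gene, for genes at a mean count of at least 100. The 10 genes spread from -0.56 to 1.32 around a median of -0.01, slow-fibre genes lie below 0 and adipocyte and Schwann cell genes above it.

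The authors deposited transcript values in a first table made from aligned reads and a second made from reads directly, and the 10 genes differed in how far the tables led to 1 picture. The transcript with the highest mean share of a gene's TPM was the same in both for 6 of the 10 genes, and differed for Ankrd23, Fhl1, Csrp3 and Smpx. How often the tables share a leading transcript over all genes was not computed, so this count has no background beside it. The clearest case was Xirp2. Xirp2-202 took 100% of TPM in both animals in the first table and 99.906% in animal 1 against 99.996% in animal 2 in the second. Its coding sequence of 3283 codons lies for 94.1% in a single exon of 9265 bases, and Xirp1-201 is built alike, with 99.8% of its coding sequence in an exon of 3390 bases. Xirp1-201 took 93.6% in animal 1 against 89.3% in animal 2 in the first table and 100% in both in the second. The short Xirp1-202 took the other 6.45% in animal 1 against 10.7% in animal 2 in the first table and was at 0 in the second.

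Exons by which transcripts of 4 of the genes differ are printed here as they run in the transcript, 5′ to 3′, from GENCODE M21 on mm10. Capitals mark the alternative bases, and small letters the adjoining bases of the transcript.
Xirp2-202, exon 8 of 9, coding part (chr2:67519220-67519311, plus strand): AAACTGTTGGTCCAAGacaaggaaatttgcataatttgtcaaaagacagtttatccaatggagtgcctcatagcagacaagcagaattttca
Nrap-202, exon 12 of 42 (chr19:56374364-56374468, minus strand): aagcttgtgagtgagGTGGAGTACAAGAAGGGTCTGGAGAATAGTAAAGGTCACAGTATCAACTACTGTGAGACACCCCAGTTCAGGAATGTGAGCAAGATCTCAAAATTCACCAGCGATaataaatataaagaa
Ankrd23-202, exon 7 of 9 (chr1:36531909-36532007, minus strand): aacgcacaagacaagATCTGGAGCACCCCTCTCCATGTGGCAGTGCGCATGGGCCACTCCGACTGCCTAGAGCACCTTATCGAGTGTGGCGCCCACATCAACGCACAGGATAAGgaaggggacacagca
Fhl1-203, exon 7 of 8 (chrX:56791239-56791438, plus strand): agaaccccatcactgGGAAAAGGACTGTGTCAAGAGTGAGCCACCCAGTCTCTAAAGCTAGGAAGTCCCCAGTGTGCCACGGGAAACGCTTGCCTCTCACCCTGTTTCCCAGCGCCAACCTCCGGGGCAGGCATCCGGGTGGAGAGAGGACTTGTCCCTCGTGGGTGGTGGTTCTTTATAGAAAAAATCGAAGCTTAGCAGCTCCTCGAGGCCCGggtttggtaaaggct
The first 16 bases of the Xirp2 stretch are used by Xirp2-202 and not by Xirp2-201, which has the longer reading frame of 3784 codons. The other sequences are whole exons of 105, 99 and 200 bases.

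Nrap was divided between the forms with and without its exon 12, which adds 35 codons and is known in mouse from skeletal muscle, while the heart form lacks it. Transcripts with this exon made up 56.6% of Nrap TPM in animal 1 against 48.9% in animal 2 in the first table, and 69.1% in animal 1 against 62.7% in animal 2 in the second. The share was lower in animal 2 in both tables, and in both tables a sizeable share was assigned to transcripts without it. Nrap-201, which lacks the exon, took 42.3% in animal 1 against 48.6% in animal 2 in the first table, and 23.0% in animal 1 against 29.5% in animal 2 in the second. Of the 7 heart markers, all but Myh6 were at 1.20 TPM or less in both animals, and how the reads were divided between these transcripts was not tested.

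For Ankrd23 the exon of 33 codons has the length of 1 ankyrin repeat unit. Among transcripts that span it, those with the exon took 70.2% in animal 1 against 69.6% in animal 2 in the first table, and 80.8% in animal 1 against 85.4% in animal 2 in the second. The tables disagreed more on a short non-coding transcript, Ankrd23-203, which starts furthest upstream. It had 0.98 TPM in animal 1 against 2.14 TPM in animal 2 in the first table, but 1460 TPM in animal 1 against 1999 TPM in animal 2 in the second. In the second table it held 58.3% of Ankrd23 TPM in animal 1 against 60.5% in animal 2. It is 663 bases long against 2277 for Ankrd23-202. By estimated counts, on the mean of both animals, it held 21.4% there and Ankrd23-202 led with 73.0%. Protein-coding genes tended to have higher TPM in the second table. For those reaching 1 TPM, the median log2 ratio of second over first table was 0.57 in animal 1 against 0.55 in animal 2. Ankrd23 as a whole had 1.18 in animal 1 against 1.13 in animal 2. TPM is thus not on 1 scale in both tables. Whether the coding transcripts of Ankrd23 alone were nearer than its totals, given this shift, was not tested. Ankrd23-202 had 776 TPM in animal 1 against 1050.4 TPM in animal 2 in the first table and 842 TPM in animal 1 against 1116 TPM in animal 2 in the second. The coding sequence is 192 codons in Ankrd23-202, 273 in Ankrd23-204 and 306 in Ankrd23-201. Ankrd23-201 was at 0 in both animals in the first table. In the second it had 0.0123 TPM in animal 1 against 2.41e-05 TPM in animal 2. Ankrd23-204, which lacks the exon, took 29.8% in animal 1 against 30.4% in animal 2 in the first table and 7.99% in animal 1 against 5.75% in animal 2 in the second.

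Fhl1 is transcribed from several starts spread over the gene on chrX, and the tables placed most of its reads at different ones. Starts were put into 3 groups by position after the values were seen. By the first quantification, 86.1% in animal 1 against 83.7% in animal 2 fell to the 4 transcripts of a proximal group, led by Fhl1-204, whose first start lies 47650 bases downstream of the most distal one. In the second table those transcripts held 23.1% in animal 1 against 24.6% in animal 2, and the 3 distal transcripts held 60.6% in animal 1 against 58.7% in animal 2. Within a table the animals were close, with Fhl1-204 at 76.7% in animal 1 against 76.8% in animal 2 in the first. The second table was led by the distal Fhl1-201, with 34.0% in animal 1 against 32.4% in animal 2, which had 3.398% in animal 1 against 4.59% in animal 2 in the first. Fhl1-207, from an internal start, took 9.55% in animal 1 against 11.004% in animal 2 in the first table and 15.8% in animal 1 against 16.3% in animal 2 in the second. Fhl1-210, a short transcript of the proximal group, took 9.03% in animal 1 against 6.18% in animal 2 in the first table and was at 0 in the second. The coding sequence is 296 codons in Fhl1-204, 280 in Fhl1-201 and 323 in Fhl1-203. Fhl1-203 carries the 200-base exon printed above, which changes the C-terminal end and corresponds to the form known in human as FHL1B or SLIMMER. Of transcripts spanning that exon, those with it took 0.613% in animal 1 against 0.483% in animal 2 in the first table, but 31.8% in animal 1 against 31.7% in animal 2 in the second, and the tables thus differ on the level of this form.

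Csrp3-201 and Csrp3-202 share their coding sequence of 194 codons and differ in the first exon, which is 36 bases long in Csrp3-201 and 56 in Csrp3-202. Csrp3-201 took 98.7% of TPM in animal 1 against 98.3% in animal 2 in the first table. In the second it took 49.2% in animal 1 against 24.6% in animal 2, and Csrp3-202 took 41.2% in animal 1 against 66.9% in animal 2. The levels there were 184 TPM in animal 1 against 32.4 TPM in animal 2 for Csrp3-201, and 154 TPM in animal 1 against 88.0 TPM in animal 2 for Csrp3-202. Csrp3-203, from a start between them, took 9.44% in animal 1 against 7.84% in animal 2 in the second table and under 0.1% in the first. The starts of Csrp3-201 and Csrp3-202 were both higher in animal 1 in the second table, and the main start in the first table had 231 TPM in animal 1 against 84.0 TPM in animal 2.

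In the remaining genes the share was divided among 2 or 3 transcripts. Ankrd2-202 and Ankrd2-201 start 38 bases apart and code for 332 and 328 codons, and Ankrd2-202 took 74.5% in animal 1 against 81.3% in animal 2 in the first table and 54.5% in animal 1 against 46.0% in animal 2 in the second. Ankrd2-201 took the rest, 25.5% in animal 1 against 18.7% in animal 2 in the first table and 45.5% in animal 1 against 54.0% in animal 2 in the second. Ankrd1-205, which starts furthest upstream, led in both tables, with 60.7% in animal 1 against 82.3% in animal 2 in the first and 94.1% in animal 1 against 96.4% in animal 2 in the second. Ankrd1-201 took 21.2% in animal 1 against 11.3% in animal 2 in the first table and was at 0 in the second. Fhl3-201 led Fhl3 with 84.8% in animal 1 against 91.1% in animal 2 in the first table and 62.2% in each animal in the second. Fhl3-202 took 13.6% in animal 1 against 8.41% in animal 2 in the first table and 36.9% in animal 1 against 37.6% in animal 2 in the second. For Smpx, whose coding sequence is 85 codons long, Smpx-208 led in the first table with 50.03% in animal 1 against 53.0% in animal 2, closely followed by Smpx-203 with 44.8% in animal 1 against 42.7% in animal 2. In the second table Smpx-208 took 30.9% in animal 1 against 23.4% in animal 2 and Smpx-203 10.8% in animal 1 against 10.3% in animal 2. There Smpx-201, annotated as a target of nonsense-mediated decay, led with 49.5% in animal 1 against 63.0% in animal 2, while it was at 0 in both animals in the first.

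**Figure D4:**
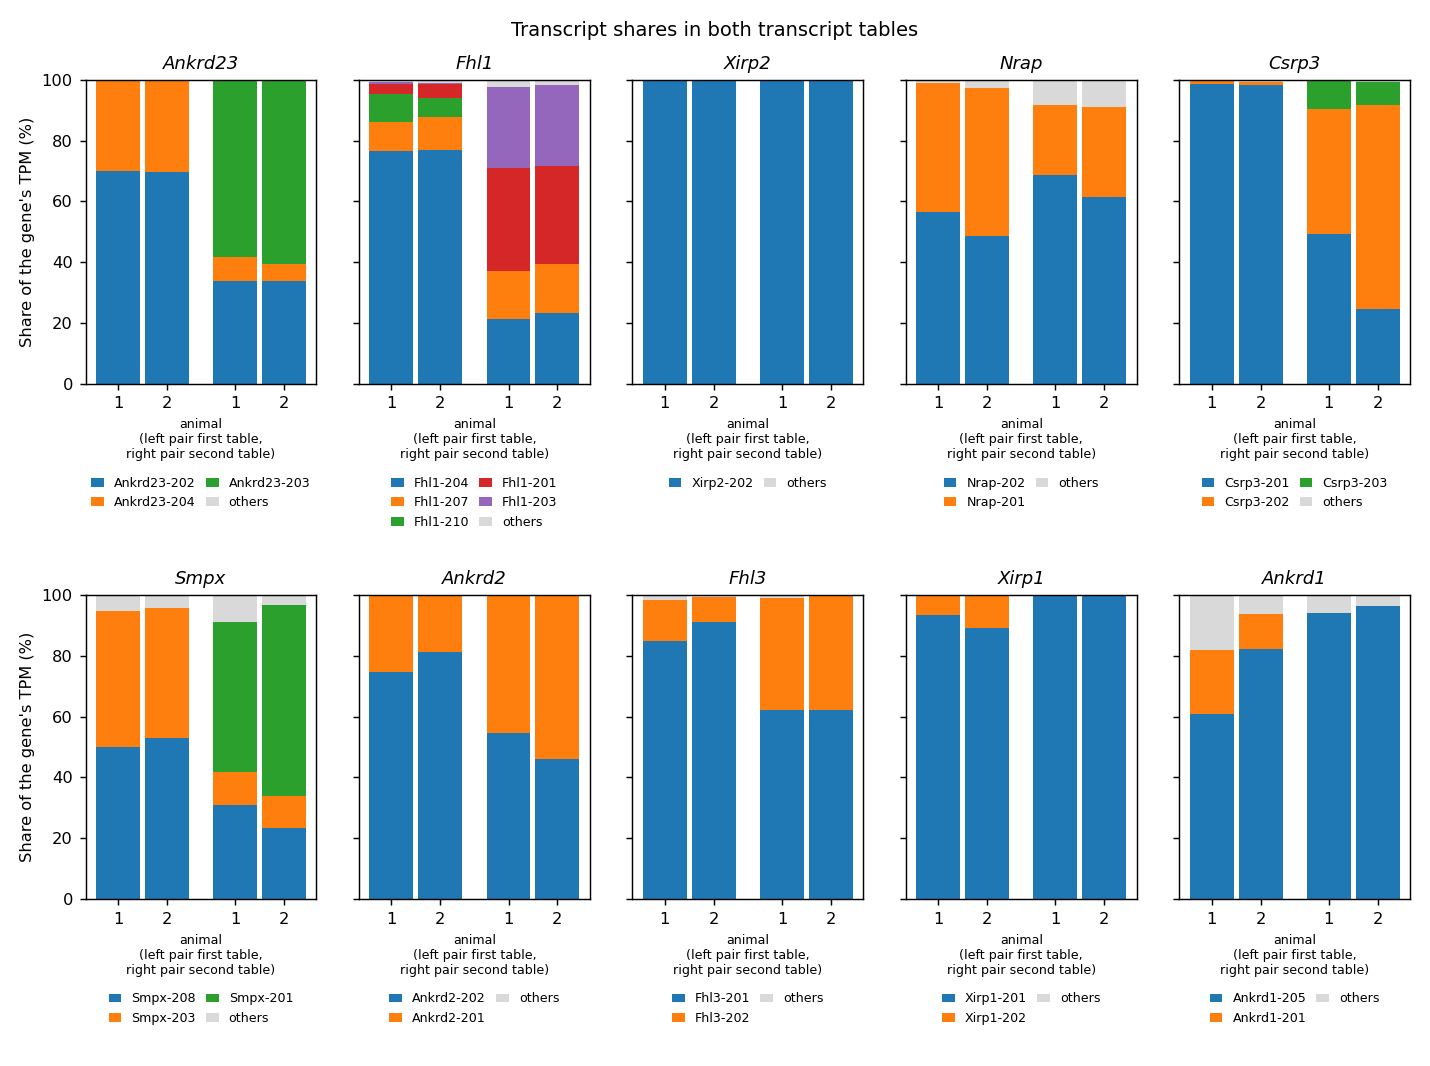
Share of each gene's TPM by transcript, as stacked bars for animal 1 and animal 2, with the first table as the left pair and the second table as the right pair in each panel. Xirp2 and Xirp1 look alike in both tables, whereas by the mean share of both animals the leading transcript changes for Ankrd23, Fhl1, Csrp3 and Smpx. By single animals, Csrp3-201 leads in both tables in animal 1. The leader also changes for Ankrd2 and Nrap in animal 2.

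Promoter sequence was read for the 250 bases before each start in RefSeq's table for GRCm38.p6, which held 12 such windows for 9 of the genes and none for Xirp1. The windows of Csrp3 are shown because the transcript tables divided the gene between those starts, and those of Fhl1 because they lie at its proximal and internal starts. The RefSeq start lies 18 bases from that of Csrp3-201, 20 from that of Csrp3-202, 40 from that of Fhl1-204 and at that of Fhl1-207. Each window runs 5′ to 3′ on the strand of the gene, and capitals mark the motif matches listed after them.
Csrp3, before the start near Csrp3-201 (chr7:48848052-48848301, minus strand): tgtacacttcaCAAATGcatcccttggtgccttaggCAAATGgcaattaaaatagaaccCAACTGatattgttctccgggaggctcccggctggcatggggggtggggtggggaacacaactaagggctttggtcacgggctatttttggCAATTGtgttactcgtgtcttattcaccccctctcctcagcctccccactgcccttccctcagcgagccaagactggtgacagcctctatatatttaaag
Csrp3, before the start near Csrp3-202 (chr7:48843672-48843921, minus strand): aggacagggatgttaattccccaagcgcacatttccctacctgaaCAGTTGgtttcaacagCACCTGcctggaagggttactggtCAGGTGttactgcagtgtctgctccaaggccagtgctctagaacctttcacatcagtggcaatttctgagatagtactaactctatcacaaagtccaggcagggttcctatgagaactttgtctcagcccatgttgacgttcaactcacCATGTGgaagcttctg
Fhl1, before the start near Fhl1-204 (chrX:56779433-56779682, plus strand): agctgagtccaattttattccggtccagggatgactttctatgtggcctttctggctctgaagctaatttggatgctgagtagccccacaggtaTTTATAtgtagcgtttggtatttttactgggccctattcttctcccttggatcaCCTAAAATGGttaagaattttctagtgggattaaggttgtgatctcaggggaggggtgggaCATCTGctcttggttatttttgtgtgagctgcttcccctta
Fhl1, before the start of Fhl1-207 (chrX:56786277-56786526, plus strand): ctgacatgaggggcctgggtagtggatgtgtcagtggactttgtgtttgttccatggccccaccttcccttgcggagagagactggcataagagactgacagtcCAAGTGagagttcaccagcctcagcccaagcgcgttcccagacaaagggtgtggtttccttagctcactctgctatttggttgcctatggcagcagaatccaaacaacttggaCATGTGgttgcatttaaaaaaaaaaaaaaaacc
The motifs searched on both strands were the E-box CANNTG, bound by MyoD-type factors, the MCAT element CATTCC, bound by TEAD factors, the TATA box TATAAA, the CArG box of SRF and the MEF2 site. No match to 1 motif overlapped a match to another, and 1 pair of E-boxes, in Xirp2, overlapped.

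Both Csrp3 windows held 4 E-boxes. Those in the window near Csrp3-201 began 239, 214, 191 and 100 bases before the start, and those near Csrp3-202 205, 189, 165 and 16 bases before it. E-boxes were common in general, with 9 of the 12 windows against 66.2% of 32851 windows of the same length in the table. A CArG box was found in 1 window, 102 bases before the start near Fhl1-204, against 1.47% of all windows. The same Fhl1 window held TATAAA on the reverse strand 156 bases before the start. MCAT elements were in 2 of the 12 windows, those of Ankrd1, with matches at 210 and 123 bases before the RefSeq start, and Ankrd23, with 1 at 120 bases, against 12.6% of all windows. TATA boxes were in 2 windows, of Ankrd2 and Fhl1, against 12.4%, and a MEF2 site in 1, of Xirp2, against 2.92%. Some windows are themselves transcribed in the GENCODE annotation. All 250 bases of the Ankrd1 window lie in the first exon of Ankrd1-205, the leading transcript, so both MCAT matches there are inside that transcript. Likewise 1 of the Ankrd23 windows, without any match, lies wholly in the first exon of Ankrd23-203, and 87 bases of the Fhl1 window near Fhl1-204 lie in an exon of Fhl1-205. The last 27 bases of the Ankrd2 window lie in the first exon of Ankrd2-202. The TATA match there, which begins 29 bases before the RefSeq start, reaches into that exon. In the Smpx window 63 bases lie in an exon of Smpx-201 and of Smpx-206. These matches describe letters and no binding was measured.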

How the data were processed

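The 2 gastrocnemius libraries form 1 group, so no test between groups was possible and no p-value was computed. For each library the authors deposited a gene table and a first transcript table of expected counts and TPM, where each count has a posterior SD. Per the file headers, the transcript table also gives the percent that a transcript takes of the TPM of its gene. A second transcript table deposited by the authors gives estimated counts and TPM. According to the file lists the build was mm10 with GENCODE M21, and the first pair of tables came from alignments to the transcriptome while the last came from reads. Which software, versions and strand setting were used is not given in the sources used here. All reads were counted on mm10, a B6 genome, so reads of CAST alleles can be lost, and how far this moves a gene was not analysed here. TPM has a fixed sum, so a rise in 1 abundant RNA lowers all others.

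The gene table held 26248 rows with no gene name, with 3 counts in animal 1 against 5 in animal 2 (6.63e-06% in animal 1 against 1.04e-05% in animal 2 of counts). These rows and the spike-ins, with 216553 counts in animal 1 against 185528 in animal 2, were kept out of library sizes. Expected counts were rounded for the scaling factors. Ratios between animals used TMM factors from edgeR with 0.5 as prior count, and ratios between genes a pseudocount of 0.1 TPM. Intervals are exact binomial (Clopper-Pearson) at 95% and cover counting error only. The gene lists and members were chosen with earlier results of these data known. The rule for names covers all 10 genes, every transcript at 5% or more of a gene's TPM in both animals in either table, the 3 genes of highest mean TPM per list and list genes beyond 2-fold. Of the list genes it covers, only some are printed. Other list genes were named after their values were seen. The procedure was run on simulated data with planted log2 changes of 2 and an assumed dispersion of 0.04, not estimated from these libraries. It recovered 100% of the planted changes and called 1.91% of unchanged genes. The planted changes lie well beyond the 2-fold limit, so the run checks the computation and not the error rate in these data. Alternatives were DESeq2 size factors, library size, spike-in scaling, other prior counts, pseudocounts, thresholds and filters, the second transcript table, count shares and each library left out. Software was Python 3.11.15 with scipy 1.17.1, pandas 2.3.3, numpy 2.4.6 and matplotlib 3.10.9, and R 4.3.3 with DESeq2 1.42.0 and edgeR 4.0.16.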

Additional observations from a re-analysis of the deposited data

How the results depend on the processing

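Csrp3 was the only one of the 10 genes beyond 2-fold under each scaling, prior count, filter and table tried, with log2 ratios from 1.12 with spike-in scaling to 1.43 with library size alone. The median ratio of the 10 genes, -0.0081, lay near 0 and its sign depended on the scaling: it was 0.0077 with DESeq2 size factors, 0.0018 with TMM factors from genes at a mean count of at least 10, 0.10 with library size alone, -0.21 with spike-in scaling and -0.020 in the second transcript table. The median of all genes moved with it, to 0.09 with library size and -0.22 with spike-in scaling. Beyond 2-fold in the partner, paralogue and load-response lists were 3 genes, and 4 in the second transcript table and 5 with library size alone. The share of all genes beyond 2-fold was computed with TMM scaling only, so the counts of 4 and 5 have no such share beside them. Neighbouring pairs further apart than their spread numbered 4, and 7 with a spread of 1 SD. All 10 genes were at 1 TPM or more with either library left out, and 9 at 5 TPM. The same leading transcript in both tables was found for 6 genes, and for 4 to 7 with 1 library left out. By shares of counts in place of TPM it was found for 7 genes. For values of single genes, transcripts and lists, 149 moved and 103 did not, and no called value changed sign, where moved means by more than the SD over the animals for levels and shares, outside the counting interval for ratios and by 0.005 or more for list medians. No paired analysis was possible because the libraries form 1 group. Depth limits the ratio of Ankrd1 most (interval -0.31 to 0.19), on 540 expected counts in both animals together. The counting interval of Ankrd2 (-0.03 to 0.11) also includes 0, on 7132 counts and with a ratio of only 0.04. Transcript shares depend on the table.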
